A study of Mus musculus with 8 samples.

Results

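The genes described here are those of transforming growth factor beta (TGF-beta) and interleukin 10 (IL-10): the ligands Tgfb1, Tgfb2, Tgfb3 and Inhba, the receptors Tgfbr1 and Tgfbr2, the intracellular inhibitor Smad7, the cytokine Il10, and its receptor chains Il10ra and Il10rb. They were chosen by name, as the mouse probes of the array whose gene name is one of these symbols. That gave 10 of 37058 gene names and 17 of 56567 probes, of which 15 probes were bright enough to test. All 10 genes had at least 1 tested probe, and 9 of them had one that was well above background on all 8 arrays. The exception was Il10, which passed because it was above background in TP-16 and combination tumors.

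TGF-beta is secreted in a latent complex and, once released, binds TGFBR2, which recruits and phosphorylates TGFBR1, and SMAD proteins then carry the signal to the nucleus. IL-10 binds a receptor of IL10RA and IL10RB chains and signals through JAK1, TYK2 and STAT3. In tumors both cytokines are known for damping T-cell responses, and TGF-beta also for driving matrix production by fibroblasts.

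CT26, a BALB/c colon carcinoma line, was implanted under the skin of female mice aged 6 to 10 weeks, 500000 cells each, and treatment began at tumor volumes of 100 to 200 mm3. For 2 weeks the mice received vehicle, TP-16 (75 mg/kg by mouth daily), an anti-PD-1 antibody (50 µg intraperitoneally, 2 doses a week) or both. The paper names BALB/c mice as hosts of subcutaneous CT26 tumors given these treatments. TP-16 antagonises EP4, a prostaglandin E2 receptor, and PD-1 is an inhibitory receptor of T cells. The sample labels name an agent BY001 in place of TP-16, and both names were taken to mean the same compound. The methods also name a rat IgG2a isotype control, whereas the sample labels call the control group vehicle, and whether a sample was taken from 1 tumor or several is not stated. Each group had 2 samples, each on 1 single-colour array, so the p-values measure the spread between samples, whatever those samples hold.

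All 8 arrays lay on 1 slide. The arrays of tumors given antibody shared a slide row and those of tumors given TP-16 shared slide columns, so slide position and treatment cannot be told apart. The 75th percentile of the intensities came to 371 and 378 for vehicle, 530 and 551 with TP-16, 398 and 415 with anti-PD-1, and 607 and 734 with the combination. Levels below are log2 intensities minus that percentile of the same array, so that 0 is a probe at the percentile. Between 51.4% and 59.7% of probes were well above background on an array. The number of arrays limits the precision. On this scale the median change of all 31912 tested probes was not 0: it was −0.12 with TP-16, −0.097 with anti-PD-1 and −0.20 with the combination. Quantile normalization moved these medians to 0.036, −0.0097 and −0.013.

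With the combination, 3 of the 10 genes rose against vehicle at an adjusted p of at most 0.05: the receptor Tgfbr2, the cytokine Il10 and the receptor chain Il10ra. Il10 was not well above background on either vehicle array, entered the test through treated groups in which it was higher, and was not called after normexp correction, so its call is less certain than the other 2. Of all tested probes, 32% passed in that comparison, 9.1% as higher and 22.9% as lower, so the 3 genes belong to the less frequent direction. The share of calls that were higher depended on the scaling, at 28.4% here and 49.6% after quantile normalization. By the probe with the highest mean of each gene, the other 7 genes also had positive changes that did not pass. The 10 changes ranged from 0.16 to 1.89 with a median of 0.43, where the median of all probes was −0.20. All 10 were above 0 also after quantile normalization and after normexp background correction. In 8 of the 10, every one except Tgfb1 and Smad7, both combination arrays stood above all 6 other arrays, and the same 8 did so after quantile normalization. Among all tested probes 13% had that pattern.

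The methods used another threshold, a 2-fold or larger change and p of 0.05 or less without adjustment. It is applied here to limma's p-values, whereas the methods took theirs from a t-test. By it Il10 and Il10ra passed with the combination, where 15.3% of probes passed. For Il10 that fold is taken against vehicle arrays not well above background. Its lower bound by group means, 1.70-fold, given below, does not reach 2. The t-test p-values left 1 gene at the same threshold, as did normexp correction and testing only probes above background on all 8 arrays, while quantile normalization and the series table gave 4. Unadjusted p-values of at most 0.05 were found for 7 of the 10 genes and for 14755 of the 31912 probes. In bulk tumors, more cells of a type and more RNA per cell cannot be told apart for any of these genes. After adjustment the t-test that the methods name called 0 of the 10 genes and 0 of all probes.

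**Figure D1:**
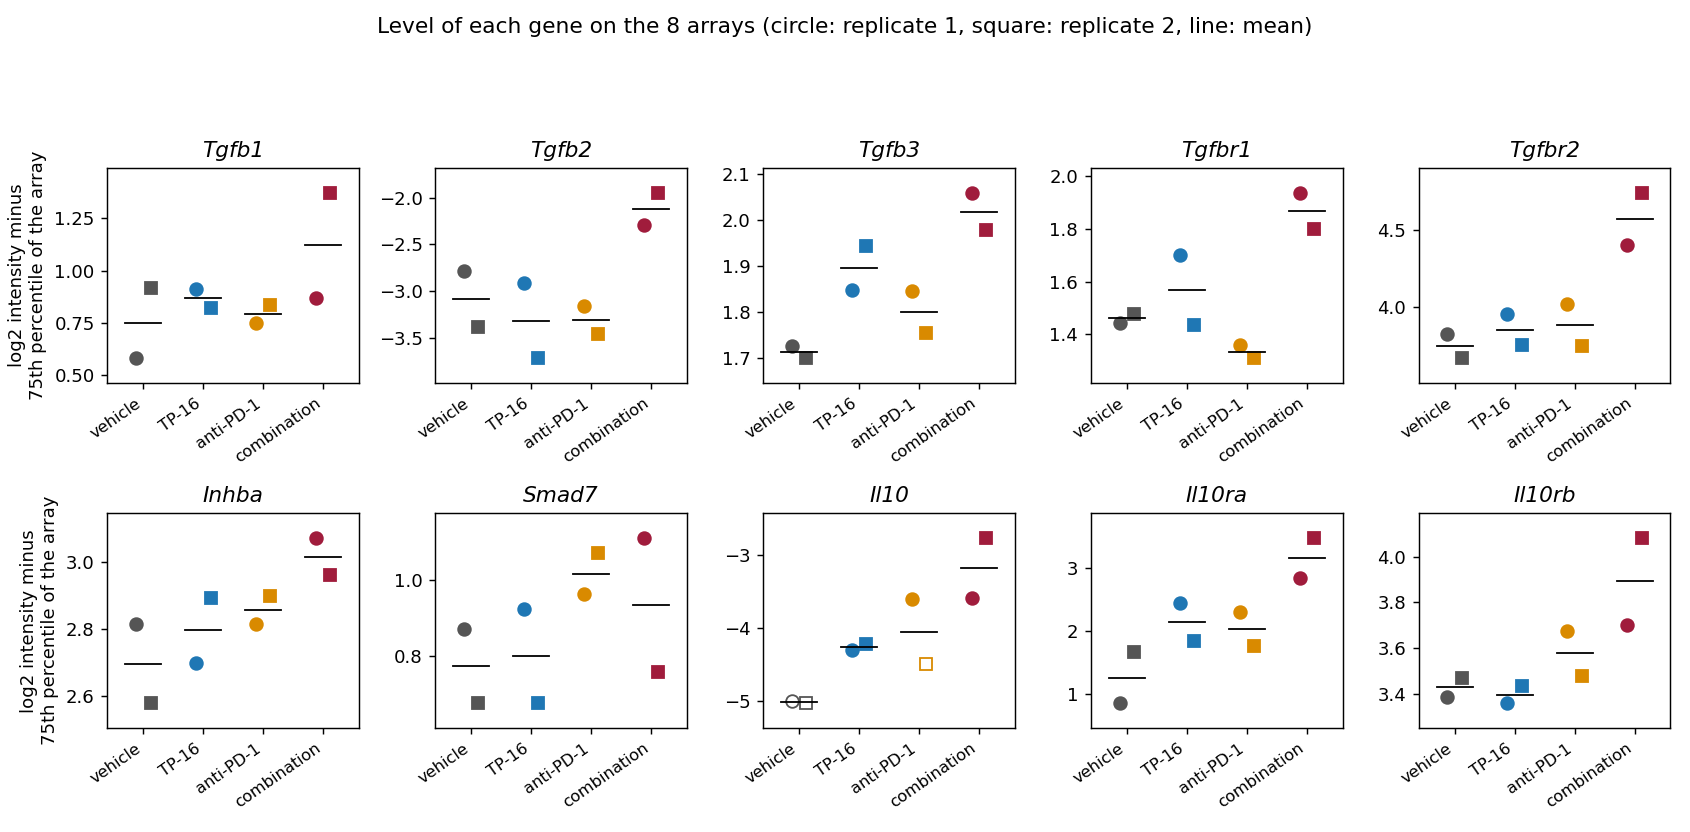
Level of each of the 10 genes on the 8 arrays, in log2 units relative to each array's 75th percentile, in the 4 treatment groups. Circles are replicate 1, squares replicate 2 and lines group means, and open symbols mark arrays on which the probe was not well above background. Combination arrays stand above the 6 others for every gene but Tgfb1 and Smad7, on separate vertical scales.

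Tgfb1, the TGF-beta isoform best known from immune cells, was measured by 2 probes. The probe with the higher mean (chr7:26489877-26489936 in the mm9 build of the array annotation) read 0.58 and 0.92 with vehicle, 0.91 and 0.82 with TP-16, 0.75 and 0.84 with anti-PD-1, and 0.87 and 1.37 with the combination. Combination replicate 1 lay among the other groups and replicate 2 above them. The change against vehicle was 0.37 (SE 0.20, adjusted p = 0.200 in limma) and did not pass. The other Tgfb1 probe (chr7:26477408-26477467), 721 bases upstream in the transcript, read −1.53 and −1.54 with vehicle, −1.03 and −1.31 with TP-16, −1.47 and −1.31 with anti-PD-1, and −0.99 and −0.44 with the combination. Here both combination arrays were above the rest, narrowly for replicate 1, and the rise of 0.82 (SE 0.21) passed with an adjusted p of 0.0327. The 2 probes of the gene thus fell on different sides of the threshold.

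Tgfb2 was the only one of the 10 genes whose departure from additivity had an unadjusted p of at most 0.05. Its main probe (chr1:188449333-188449392) read −2.79 and −3.38 with vehicle, −2.91 and −3.72 with TP-16, −3.16 and −3.46 with anti-PD-1, and −2.29 and −1.95 with the combination. The 3 other groups overlapped throughout, and only the combination stood apart. Against vehicle the change was 0.96 (SE 0.33, adjusted p = 0.0733). The combination was 1.20 above TP-16 (adjusted p = 0.145) and 1.19 above anti-PD-1 (adjusted p = 0.107), while each single agent lay slightly below vehicle, at −0.23 for both. These single-agent values turned positive after quantile normalization, at 0.39 and 0.19. The departure from additivity, which takes both single-agent changes from the combination change, came to 1.42 (SE 0.47, adjusted p = 0.600), which did not pass. The probe was dim, with intensities from 36.3 to 190. A dimmer Tgfb2 probe, above background on 5 arrays, gave 0.92 for the combination with an SE of 1.09, and −0.20 after normexp correction, under which the main probe gave 0.24.

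Tgfb3, the third isoform, ranged less between arrays than any other listed gene. It read 1.73 and 1.70 with vehicle and 2.06 and 1.98 with the combination, and the 4 single-agent arrays lay between 1.75 and 1.94. The change of 0.30 (SE 0.10) had an adjusted p of 0.0705, and it passed after normexp correction, at 0.39 (0.0117), and with trended and robust moderation (0.0365). Inhba, which encodes the activin A subunit and belongs to the same ligand superfamily, had 2.81 and 2.58 with vehicle and 3.07 and 2.96 with the combination. Its highest other array read 2.90, close below. The Inhba change was 0.32 (SE 0.14, adjusted p = 0.119).

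Tgfbr2, the receptor chain that binds TGF-beta first, read 3.83 and 3.67 with vehicle, 3.96 and 3.75 with TP-16, 4.02 and 3.75 with anti-PD-1, and 4.40 and 4.74 with the combination. The vehicle and single-agent arrays overlapped, and both combination arrays were above all of them. The rise against vehicle was 0.83 on the log2 scale, a fold of 1.77 (SE 0.17, adjusted p = 0.0210, higher in 2 of 2 arrays). The combination was also 0.72 above TP-16 (adjusted p = 0.137) and 0.69 above anti-PD-1 (adjusted p = 0.0921), neither of which passed. The call was lost without vehicle replicate 2 (adjusted p = 0.0691), without combination replicate 2 (0.114), and when dim probes were tested too (0.0527). The array annotation places only 10 bases of this probe on the genome (chr9:115996798-115996807).

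Tgfbr1, the signaling receptor chain, read 1.44 and 1.48 with vehicle, 1.70 and 1.43 with TP-16, 1.36 and 1.31 with anti-PD-1, and 1.94 and 1.80 with the combination. Again the combination arrays were the 2 highest, this time with TP-16 replicate 1 nearest to them. The change against vehicle was 0.41 (SE 0.13, adjusted p = 0.0593), and against anti-PD-1 it was 0.53 (adjusted p = 0.0864), the smallest adjusted p of any listed gene in that comparison. The change against vehicle passed after normexp correction, at 0.48 (0.0114), with trended and robust moderation (0.0306) and with only probes above background on all 8 arrays (0.0446). The main probe lies at chr4:47427421-47427480. A second Tgfbr1 probe, dim and above background on 7 arrays, gave 0.19 (SE 0.46) against vehicle, and its sign turned to −0.37 after normexp correction. The remaining 2 probes of the gene were at background on every array and were not tested.

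Smad7, which is induced by TGF-beta and blocks its receptor, did not pass in any comparison. Its levels were 0.87 and 0.68 with vehicle, 0.93 and 0.68 with TP-16, 0.96 and 1.07 with anti-PD-1, and 1.11 and 0.76 with the combination. Both anti-PD-1 arrays lay above the vehicle and TP-16 arrays, and the 2 combination arrays spanned nearly the whole range of the others. The change was 0.16 (SE 0.17, adjusted p = 0.496). A dimmer Smad7 probe gave 0.46 (SE 0.33, adjusted p = 0.316), 1.06 after quantile normalization and −0.15 after normexp correction.

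Il10, the cytokine itself, was near background, with an intensity of 11.6 on each vehicle array. Its levels were −5.00 and −5.03 with vehicle, −4.30 and −4.22 with TP-16, −3.61 and −4.50 with anti-PD-1, and −3.60 and −2.77 with the combination. Both vehicle arrays and anti-PD-1 replicate 2 were not well above background, and combination replicate 1 was hardly above anti-PD-1 replicate 1. The fitted rise with the combination was 1.83 (SE 0.37, adjusted p = 0.0181, higher in 2 of 2 arrays). Taken against the dimmest probe well above background on each vehicle array, the mean of the 2 combination arrays was 1.70-fold higher. This bound holds for the means and on this scale only. Combination replicate 1 (−3.60) lay nearer to that limit (−3.95) than replicate 2 (−2.77). For the single agents such a bound could not be given, since their means lay below that limit. The Il10 call was lost without vehicle replicate 2 (adjusted p = 0.0562) and without combination replicate 2 (0.0979). Under normexp correction, which adds an offset of 50 to every intensity, the change shrank to 0.14 (adjusted p = 0.485). The probe lies at chr1:132920943-132921002.

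Il10ra, the ligand-binding chain of the IL-10 receptor, read 0.86 and 1.67 with vehicle, 2.44 and 1.84 with TP-16, 2.31 and 1.77 with anti-PD-1, and 2.84 and 3.47 with the combination. All treated arrays were above both vehicle arrays, and both combination arrays were above all others. The rise with the combination was 1.89, a fold of 3.71 (SE 0.39, adjusted p = 0.0199), at chr9:45061922-45061981. A second Il10ra probe (chr9:45062649-45062708) rose by 2.03 (SE 0.49, adjusted p = 0.0290). With the single agents the main probe differed from vehicle by 0.88 under TP-16 (SE 0.39, adjusted p = 0.222) and by 0.78 under anti-PD-1 (SE 0.39, adjusted p = 0.407), and neither passed. The combination call was lost without vehicle replicate 1 (adjusted p = 0.0547) and without combination replicate 2 (0.117).

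Il10rb, the chain shared with other cytokine receptors of the family, read 3.39 and 3.47 with vehicle, 3.36 and 3.44 with TP-16, 3.68 and 3.48 with anti-PD-1, and 3.70 and 4.08 with the combination. Combination replicate 1 exceeded anti-PD-1 replicate 1 by little. The change against vehicle was 0.46 (SE 0.16, adjusted p = 0.0725). It passed after quantile normalization, at 0.63 (adjusted p = 0.0481), after normexp correction, at 0.54 (0.0215), and with trended and robust moderation (0.0356). The probe lies at chr16:91425892-91425951.

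**Figure D2:**
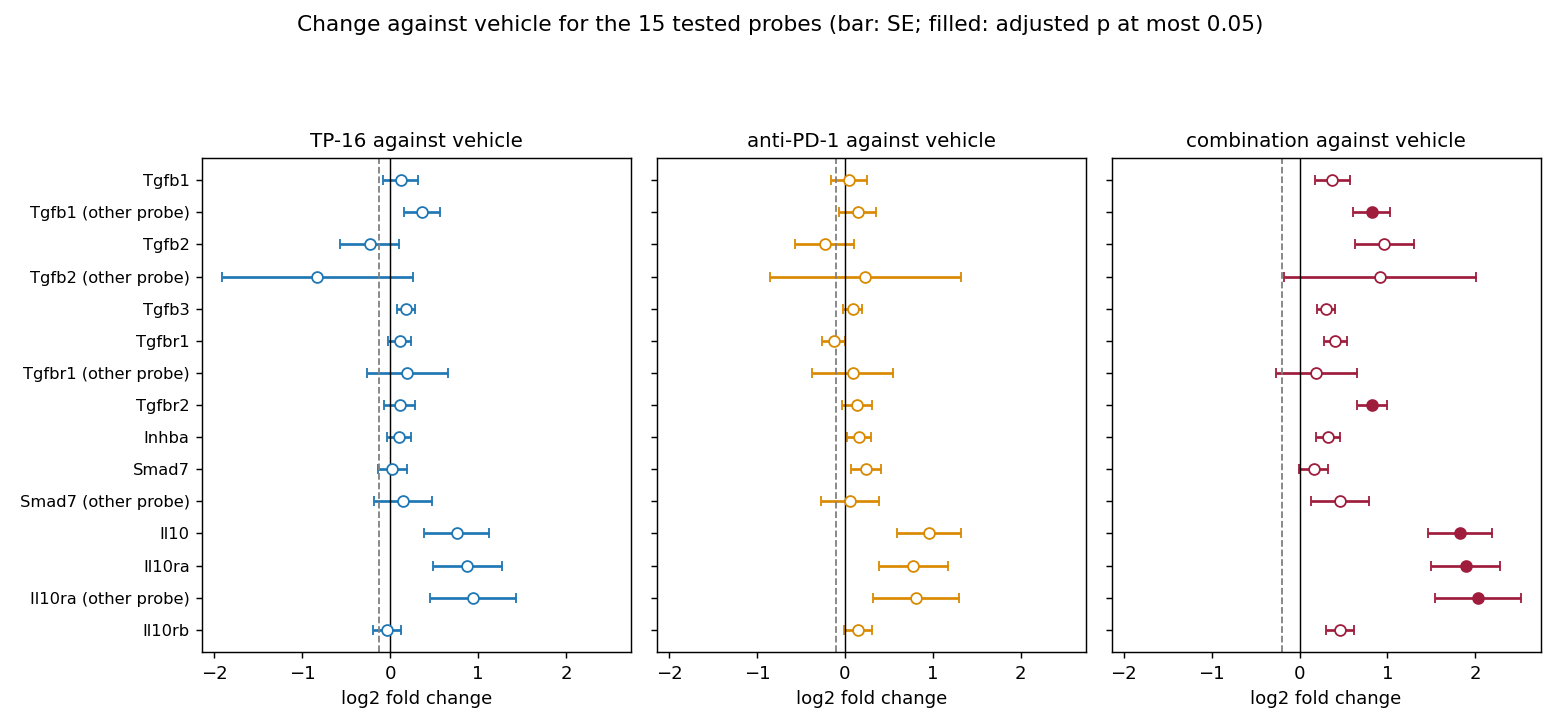
Log2 fold change against vehicle of the 15 tested probes under each of the 3 treatments. Points are limma estimates, bars 1 SE, filled points those with an adjusted p of at most 0.05, and the dashed line the median of all tested probes. Filled points occur with the combination only: Tgfb1 (other probe), Tgfbr2, Il10 and both Il10ra probes.

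The single agents moved none of the 10 genes past the threshold. With TP-16, limma called 0 of 10 genes, while 0.0533% of all tested probes passed. The smallest adjusted p among the genes was 0.222, and the methods' t-test called 0 after adjustment. An unadjusted limma p of at most 0.05 was found for 0 of the genes and for 8251 of the 31912 probes. With anti-PD-1, limma called 0 of 10 genes beside 0.0721% of all probes, and the smallest adjusted p was 0.329. In that comparison 4625 of the 31912 probes and 1 gene, Il10, had an unadjusted p of at most 0.05 (0.0402 for Il10, limma). Both vehicle arrays and 1 anti-PD-1 array were not well above background for it, so no rise can be stated. The t-test called 0 after adjustment. At the methods' threshold with limma's p, 0 genes passed with TP-16 (6.18% of probes) and 0 with anti-PD-1 (3.83% of probes), and after quantile normalization 1 passed with each. Both counts also depended on single arrays, since they changed without vehicle replicate 2, and that for anti-PD-1 also without anti-PD-1 replicate 2. In each of these comparisons 8 of the 10 changes were above 0, with a median of 0.11 under TP-16 and of 0.14 under anti-PD-1. The medians of all probes were −0.12 and −0.097. Both comparisons use the same 2 vehicle arrays, so their values are not independent.

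Adding an agent to the other gave no adjusted call among the 10 genes either. Against TP-16 alone, limma called 0 of 10 genes and 0% of all probes, and 7131 probes and 5 of the genes had p of 0.05 or less before adjustment. All 10 differences were positive and their median was 0.40, where the median of all probes was −0.082. At the methods' threshold with limma's p, Tgfb2, Il10 and Il10ra passed, beside 4.34% of probes. That count of 3 became 0 with t-test p-values and 1 with quantile normalization, normexp correction or the series table, and 0 without TP-16 replicate 2 or without combination replicate 2. Against anti-PD-1 alone, limma called 0 of 10 genes beside 0.0157% of all probes. The median difference of the genes was 0.43 and that of all probes −0.10. Before adjustment 8348 probes and 4 of the genes had p of 0.05 or less. Tgfb2 and Il10ra passed the methods' threshold with limma's p, beside 4.27% of probes, and 1 gene did so with t-test p-values or after normexp correction. The count was 0 without anti-PD-1 replicate 2 or combination replicate 2, and 3 without replicate 1 of either group. The t-test called 0 of the 10 genes after adjustment in either comparison. Under 2 alternative settings, normexp correction and trended moderation, Tgfbr1 and Tgfbr2 were called above anti-PD-1, where 22.2% and 8.57% of all probes were called. For the departure from additivity limma called 0 of 10 genes and 0% of all probes. There 2336 probes had an unadjusted p of at most 0.05, and the methods' threshold was met by Tgfb2 among the 10 genes and by 3.2% of probes. Tgfb2 no longer met it after quantile normalization, after normexp correction or in the series table, nor in 4 of the 8 fits that left out an array. The t-test was not run on that contrast.

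The groups with the highest and the lowest mean were the same for most of the genes, while the order between them differed. The combination had the highest mean for 9 of the 10 genes and anti-PD-1 for Smad7. The lowest mean was that of vehicle for 7 genes, of TP-16 for Tgfb2 and Il10rb, and of anti-PD-1 for Tgfbr1. For Tgfb1 and Smad7 the gap between 2 arrays of a group reached 0.50 and 0.35, larger than the range of the 4 group means (0.37 and 0.24), so the order of their groups is within the spread. For Il10ra the range of means, 1.89, exceeded the widest gap within a group, 0.81 between the vehicle arrays. Across the 8 arrays, which share their treatment groups, the highest correlations were those of Il10 with Il10ra (0.912) and of Tgfbr2 with Tgfb2 (0.911), with Il10rb (0.897) and with Il10 (0.897), where Il10 was near background. Smad7 correlated with the other genes at values from −0.275 for Tgfb1 to 0.465 for Inhba.

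Genes with the most similar profile were sought among 18325 genes above background on all 8 arrays, by Pearson correlation over these arrays and as a description only. For Il10ra they were Pla2g2d, Ldhb and Gimap1, each at 0.997. For Tgfbr2 they were Ppargc1b (0.995), Cd248, a marker of stromal cells (0.994), and Ago4 (0.992). Tgfb2 was closest to Arhgap24 (0.996) and to the basement membrane genes Col4a2 (0.993) and Lama4 (0.990). Il10rb was closest to the B-cell and myeloid kinase Btk (0.987), Pla2g15 (0.986) and the lysosomal protease gene Ctsd (0.977). For Tgfb1 the nearest were 4833422C13Rik (0.963), BG242006 (0.960) and Sidt2 (0.958), and for Tgfb3 they were Rgmb (0.984), Ice1 (0.981) and Ctif (0.980). Tgfbr1 was nearest to Lonrf1 (0.983), Dcp1a (0.981) and Phf12 (0.977), and Inhba to Snai1, an epithelial-mesenchymal transition factor (0.977), Trappc8 (0.975) and Dpp9 (0.955). The profile of Smad7 had looser neighbours: Gm30525 (0.905), D930030I03Rik (0.899) and Fam168b (0.893). Il10 was left out because it was not above background everywhere.

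The probes behind the Tgfb1 and Tgfb2 values show which part of each message was read, which matters because the 2 Tgfb1 probes differed in outcome. All are printed 5′ to 3′ as designed on the array, and capitals in Tgfb1 main and Tgfb2 mark the bases that are identical when the last 41 bases of the former are laid over the first 41 of the latter without gaps (28 of 41, or 68.3%). Both of these lie in the coding sequence of the mature cytokine. The other Tgfb1 probe lies in that of the latency peptide and is printed without capitals, as is the Inhba probe (chr13:16118634-16118693).
Tgfb1 main: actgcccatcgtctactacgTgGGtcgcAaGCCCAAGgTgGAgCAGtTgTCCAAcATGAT
Tgfb2: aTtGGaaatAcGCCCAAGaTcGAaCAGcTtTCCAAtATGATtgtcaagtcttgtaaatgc
Tgfb1 other: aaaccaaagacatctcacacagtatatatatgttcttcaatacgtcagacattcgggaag
Inhba: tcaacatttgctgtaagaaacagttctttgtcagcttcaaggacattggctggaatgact

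Beyond the 10 genes, 75 further genes of both pathways were counted in 7 groups, and 67 of them were tested. With the combination 26 of the 67 passed (38.8%), 20 higher and 6 lower, beside 32% of all probes. The median change was 0.32. After quantile normalization 26 passed as well, 24 higher and 2 lower, and 22 of them were the same genes. Without combination replicate 2, limma called 0 of the 67 and 0 of all probes, although 9425 probes had p of 0.05 or less before adjustment. With TP-16 limma called 0 of 67 genes, of which 16 had p of 0.05 or less before adjustment beside 8251 of all probes. With anti-PD-1 it called 0, where 17 genes and 4625 probes had such a p. After adjustment the methods' t-test called 0 in all 3 comparisons with vehicle.

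**Figure D3:**
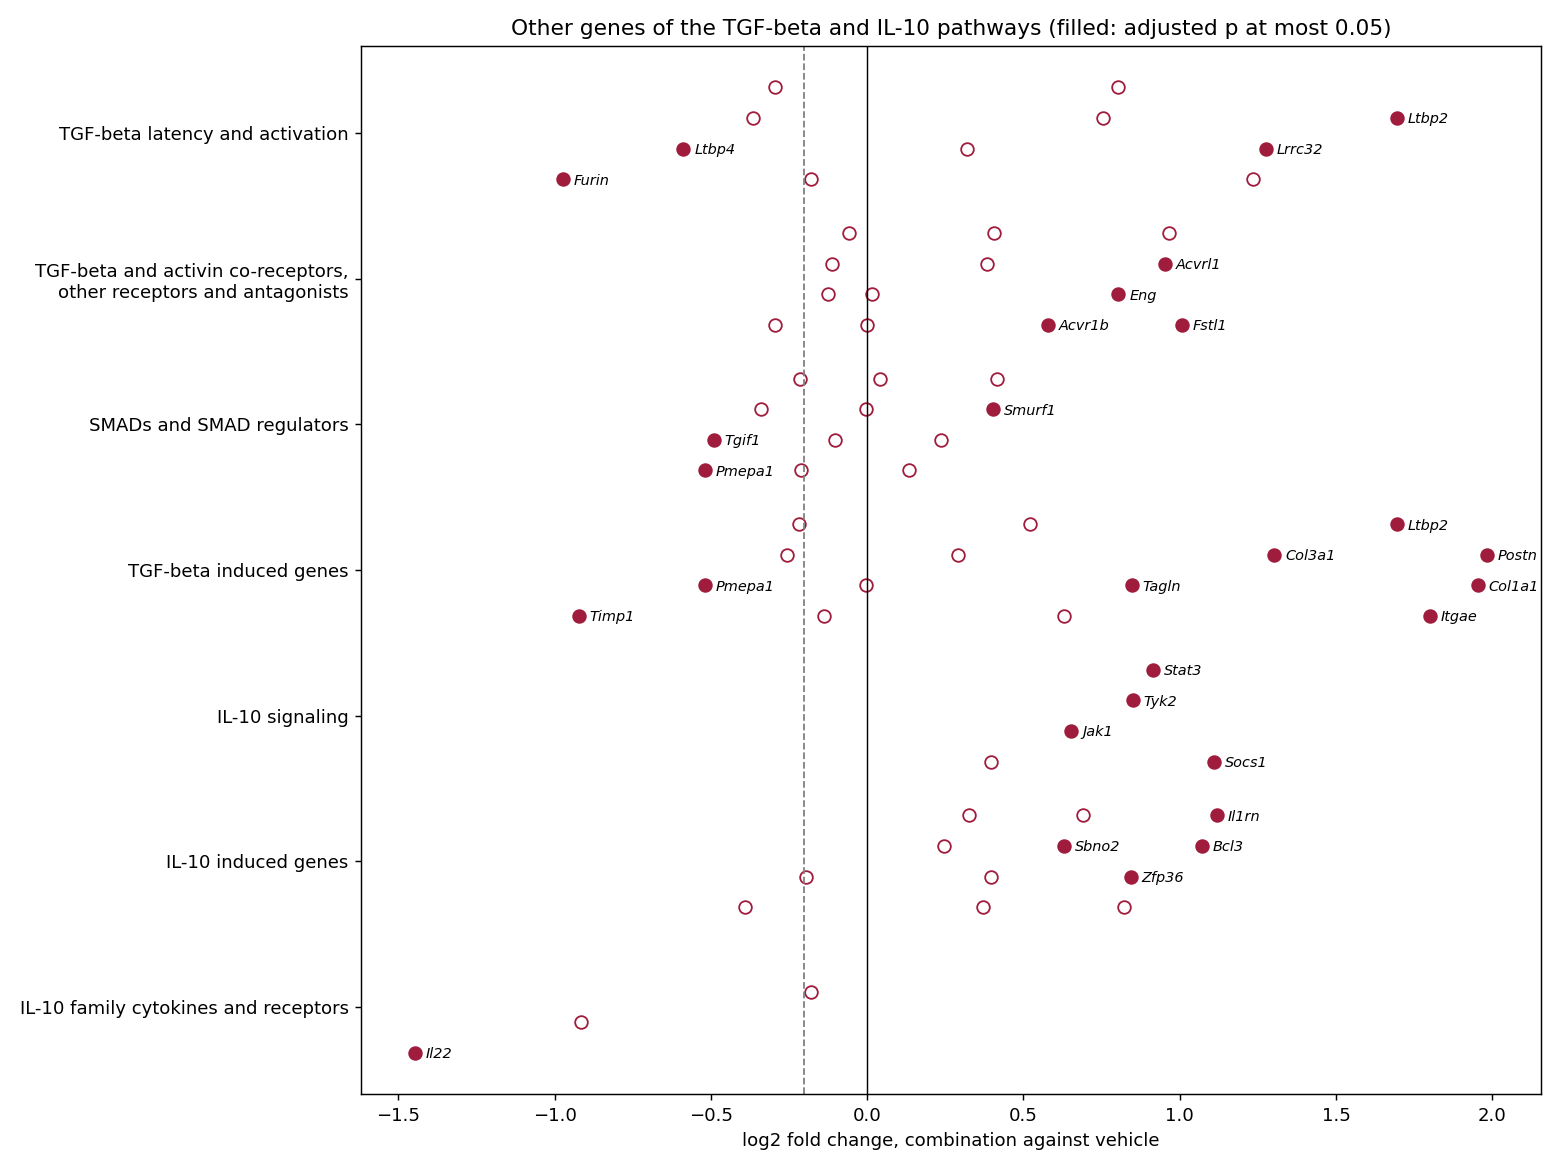
Log2 fold change of the other tested pathway genes with the combination against vehicle, by list. Each circle is a gene, filled and named where the adjusted p is at most 0.05, and the dashed line is the median of all tested probes (−0.20). Ltbp2, Pmepa1, Skil and Socs3 appear in more than 1 list, and Furin, Ltbp4, Tgif1 and Timp1 on the left are not called after quantile normalization.

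IL-10 signaling had the highest share, with 4 of 5 genes higher, 0 lower and a median of 0.85. Stat3, the main IL-10 transcription factor, read 2.90 and 3.64 with vehicle, 3.99 and 3.85 with TP-16, 3.82 and 3.93 with anti-PD-1, and 4.04 and 4.33 with the combination. All treated arrays were above the vehicle arrays, which themselves lay far apart. Stat3 rose by 0.91 (SE 0.25, adjusted p = 0.0419). Socs1, a feedback inhibitor of JAK kinases, rose by 1.11 (SE 0.22, adjusted p = 0.0179). The kinases Tyk2 (0.85, SE 0.17, adjusted p = 0.0184) and Jak1 (0.65, SE 0.12, adjusted p = 0.0138) rose too. The remaining gene counted here, Socs3, named after its value was seen, did not pass, with 0.40 (adjusted p = 0.0911). It passed after quantile normalization, at 0.64 (0.0216), and after normexp correction, at 0.52 (0.0161).

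Of 12 genes known to be induced by IL-10 in macrophages, 4 rose and 0 fell, with a median of 0.51. They were Il1rn, the IL-1 receptor antagonist (1.12, SE 0.21, adjusted p = 0.0158), Bcl3, a nuclear NF-kappaB inhibitor (1.07, SE 0.19, adjusted p = 0.0149), Zfp36, which destabilises cytokine messages (0.84, SE 0.13, adjusted p = 0.0115), and Sbno2 (0.63, SE 0.15, adjusted p = 0.0288). Il1rn read 1.93 and 1.66 with vehicle, 1.82 and 2.06 with TP-16, 2.49 and 2.63 with anti-PD-1, and 2.66 and 3.17 with the combination. Vehicle and TP-16 overlapped, and the groups given antibody were above both. Of the other IL-10 family genes only 3 of 9 could be tested. Among these Il22, a T-cell cytokine acting on epithelium, fell by 1.45 (SE 0.26, adjusted p = 0.0149). Il22 was dim and above background on 5 arrays, with combination replicate 1 not among them, so the size of this fall is uncertain. It was −0.89 after quantile normalization and −0.94 after normexp correction.

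Among genes of TGF-beta latency and activation, 2 of 11 tested rose and 2 fell, with a median of 0.32. Ltbp2, a matrix protein of the latent TGF-beta binding family, read 0.26 and 0.31 with vehicle, 1.49 and 1.29 with TP-16, 1.45 and 0.97 with anti-PD-1, and 1.92 and 2.04 with the combination. The vehicle arrays were lowest, the combination arrays highest, and the single agents between them. Ltbp2 rose by 1.70 (SE 0.18, adjusted p = 0.0102). Lrrc32, which tethers latent TGF-beta on regulatory T cells, platelets and endothelium, rose by 1.28 (SE 0.27, adjusted p = 0.0213). Furin, the protease that cleaves the TGF-beta precursor, fell by 0.97 (SE 0.12, adjusted p = 0.0102), and Ltbp4 fell by 0.59 (SE 0.14, adjusted p = 0.0287). After quantile normalization the Furin change was −0.028 (adjusted p = 0.831) and that of Ltbp4 −0.30 (0.169), so these 2 falls depended on the scaling. Itgb6, which encodes part of a TGF-beta-activating integrin, was not above background on both arrays of any group.

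Of the co-receptors, other receptors and antagonists, 4 of 13 rose and 0 fell, with a median of 0.38. These were Fstl1, a secreted stromal glycoprotein (1.01, SE 0.26, adjusted p = 0.0352), the endothelial receptors Acvrl1 (0.95, SE 0.15, adjusted p = 0.0113) and Eng (0.80, SE 0.22, adjusted p = 0.0406), and the activin receptor Acvr1b (0.58, SE 0.099, adjusted p = 0.0131). Of 12 SMADs and SMAD regulators, 1 rose and 2 fell, with a median of −0.054. Smurf1, a ubiquitin ligase for SMADs and receptors, rose by 0.40 (SE 0.11, adjusted p = 0.0390). The SMAD inhibitors Pmepa1 and Tgif1 fell by 0.52 (SE 0.13, adjusted p = 0.0304) and by 0.49 (SE 0.13, adjusted p = 0.0361). After quantile normalization Tgif1 was no longer called, at −0.27 (adjusted p = 0.184).

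The genes known as TGF-beta targets went both ways, with 6 of 15 higher, 2 lower and a median of 0.52. Those that rose most were the matrix genes Postn (1.98, SE 0.31, adjusted p = 0.0114) and Col1a1 (1.95, SE 0.36, adjusted p = 0.0153), then Itgae, the CD103 integrin chain of tissue-resident T cells (1.80, SE 0.36, adjusted p = 0.0179), and the matrix genes Ltbp2 and Col3a1 (1.30, SE 0.36, adjusted p = 0.0417). Postn read 1.69 and 0.96 with vehicle, 1.76 and 1.17 with TP-16, 2.28 and 2.17 with anti-PD-1, and 3.11 and 3.50 with the combination. Vehicle and TP-16 overlapped, anti-PD-1 stood above them and the combination above all. Timp1, a metalloproteinase inhibitor, fell by 0.92 (SE 0.24, adjusted p = 0.0366) and Pmepa1 fell as given above. After quantile normalization Timp1 was not called.

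Marker genes of cell types differed between the groups as well, and the part of cell composition in the results above was not tested. Each list is summed in multiples of the 75th percentile of the array. Calls are for the combination against vehicle, where 9.1% of all tested probes were higher and 22.9% lower. The leukocyte sum was 46.5 and 89.0 with vehicle and 120 and 164 with the combination, with Cd52 the brightest and 3 of 5 genes higher. For T cells it was 2.98 and 11.6 with vehicle, 18.6 and 15.7 with TP-16, 18.3 and 14.8 with anti-PD-1, and 22.4 and 38.5 with the combination, led by Cd3d, and 2 of 6 genes were called higher, Cd3e and Cd8a. Vehicle replicate 1 was the lowest array in both lists, as it was for Il10ra and Stat3. For macrophages the sum went from 153 and 207 to 266 and 386, led by Csf1r, with 7 of 10 genes higher and Cd14 lower. Regulatory T-cell markers summed to 0.963 and 2.31 with vehicle and 3.35 and 4.26 with the combination, led by Tnfrsf18. There 3 of 6 were higher, but Foxp3, which defines the cells, was not (−0.21, adjusted p = 0.570).

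The sums of fibroblast and of carcinoma and epithelium markers also differed between vehicle and the combination, while the endothelial sums overlapped. The fibroblast sum was 236 and 218 with vehicle and 351 and 364 with the combination, led by Col1a2, with 5 of 8 genes higher. Dcn is in this list and in that of TGF-beta latency. The endothelial sum was 9.99 and 7.87 with vehicle and 9.17 and 12.7 with the combination, led by Emcn, with 0 of 6 called in either direction by limma. The carcinoma and epithelium sum went down from 13.5 and 9.42 to 5.24 and 3.51, led by Krt18. Of 6 tested genes, only Cdh1 had a positive change (0.82, adjusted p = 0.220 in limma), and Krt18 was called lower. So was Cdx2, but it was above background on 4 arrays only, both of vehicle and 0 of the combination among them. It was tested because vehicle, where it was high, passed the filter, and it was at least 6.90-fold lower with the combination by group means. Epcam and Vil1, defining markers of colon epithelium, were not above background on both arrays of any group.

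Further lists were neutrophils (116 and 106 with vehicle, 69.8 and 55.4 with the combination, led by Csf3r, 1 of 6 higher and 2 lower) and red blood cells (533 and 338 with vehicle, 115 and 98.1 with TP-16, 158 and 165 with anti-PD-1, 75.5 and 94.6 with the combination, led by Hba-a1, 5 of 5 lower). B and plasma cell markers, led by Jchain, had 0.883 and 1.73 with vehicle and 4.55 and 5.11 with the combination, with Jchain and Mzb1 of 6 genes higher. The B-cell markers Ms4a1 (−2.50) and Cd79a were called lower. Cd79a was above background on 0 combination arrays and at least 2.27-fold lower by group means. Tissue around the implant gave 13.08 and 34.5 against 31.7 and 34.4 for skeletal muscle, led by Acta1, and 2.73 and 5.90 against 5.41 and 5.86 for adipose tissue, led by Car3. Epidermis, led by Krt14, gave 3.50 and 4.71 with vehicle, 2.31 and 27.6 with TP-16, 2.94 and 28.0 with anti-PD-1, and 2.30 and 1.93 with the combination, so replicate 2 of each single agent was far above the other arrays. Limma called 0 genes in these last 3 lists with the combination.

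RefSeq promoters of GRCm38.p6 were found for 5 of the 10 genes. Of these, Tgfb2 is shown for its departure from additivity before adjustment and Tgfbr2 as the only one called with the combination. In the 250 bases before the start, both strands were searched for the SMAD box CAGAC, the CRE core TGACG, the AP-1 site TGANTCA, the E box CACGTG and the STAT site TTCNNNGAA. Capitals mark the matches, which are descriptions and not shown binding sites. Tgfb2 (chr1:186705990-186706239, minus strand) holds 2 SMAD boxes, from −221 and −204, 1 CRE core from −72 and 1 E box from −51. Tgfbr2 (chr9:116175364-116175613, minus strand) holds 1 SMAD box from −160. Of 32851 promoters of this length, 42.2% hold the SMAD box, 17.8% the CRE core, 6.75% the AP-1 site, 6.02% the E box and 7.02% the STAT site. The promoters of Tgfb1 and Inhba held none of the 5, and of the 2 starts of Tgfbr1 the downstream one held 1 SMAD box.
Tgfb2 promoter: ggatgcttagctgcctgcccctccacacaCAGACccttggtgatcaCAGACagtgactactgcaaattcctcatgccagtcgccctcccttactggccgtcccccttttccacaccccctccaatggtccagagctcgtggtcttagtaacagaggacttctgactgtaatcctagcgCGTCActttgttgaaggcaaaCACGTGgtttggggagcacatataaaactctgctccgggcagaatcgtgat
Tgfbr2 promoter: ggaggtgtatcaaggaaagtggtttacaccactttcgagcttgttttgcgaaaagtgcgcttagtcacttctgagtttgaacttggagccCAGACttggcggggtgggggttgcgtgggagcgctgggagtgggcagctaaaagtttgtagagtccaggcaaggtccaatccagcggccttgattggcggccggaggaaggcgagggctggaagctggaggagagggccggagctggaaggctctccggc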

How the data were processed

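RNA from CT26 tumors of 4 treatment groups, 2 samples each, was measured on 8 single-colour Agilent SurePrint G3 mouse arrays. The methods name TRIzol for extraction and the sample labels a column kit. The authors deposited scanner files whose spot values are an intensity, background-subtracted and detrended by Agilent Feature Extraction 10.7.1.1 according to the submitters' processing notes. The authors also deposited a series table of log2 values that they normalized, without naming the kind of normalization. Sorted by size, its values were nearly alike on all arrays, with a largest gap of 0.0652.

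Of 62976 spots, 59305 carried 56605 mouse probes. Control spots were dropped, and so were spot readings that the scanner software had marked as outliers (959 over all arrays). This left 38 probes without an unmarked spot on at least 1 array, and these probes were left out. The unmarked spots of a probe were averaged, and 0 probes were saturated. From each log2 intensity the array's 75th percentile was subtracted. A probe was tested where both arrays of any group held it well above background, which left 31912 probes with 21497 gene names. They were fitted with limma 3.58.1 (R 4.3.3) over all 8 arrays, using group means, empirical Bayes moderation, no block and 4 residual degrees of freedom. The p-values are 2-sided and were adjusted over all tested probes by the Benjamini-Hochberg method, and a call is an adjusted p of at most 0.05. Beside it stands the methods' threshold, a 2-fold or larger change and p of 0.05 or less without adjustment, applied to limma's p, with the methods' t-test as an alternative. Other software was data.table (version 1.17.8), Python 3.11.15 and matplotlib 3.10.9. The calculations were tested on simulated data.

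Where a gene had several probes, the one with the highest mean over the 8 arrays stands for it. The text names all 10 members with every probe, each gene of the 7 pathway lists that passed (the 5 with the largest change where more passed in a direction), and the 3 genes most like each member. Members and lists, including 13 marker lists, were chosen with earlier results of these data known. Of the pathway genes first listed, 2 were left out of every count and plot, for a reason unrelated to their values, and the counts hold for the genes kept only. The 17 probes matched RefSeq accessions for 15, each with the same symbol.

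Alternative settings were quantile normalization, the series table, normexp background correction (offset 50), testing dim probes too, testing only probes above background on all 8 arrays, the replicate number as a block, the methods' t-test, trended and robust moderation, the mean of a gene's probes, and leaving out each array. A slide block was not run, since the arrays lie on 1 slide. Quantile normalization and the series table gave nearly the same results, with 8098 and 8114 probes called with the combination against vehicle. They are therefore not separate checks.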

Additional observations from a re-analysis of the deposited data

How the results depend on the processing

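The number of the 10 genes called with the combination against vehicle, 3, became 5 with normexp correction, 6 with trended and robust moderation and 0 with the methods' t-test, where 52.4%, 34.9% and 0% of all probes were called against 32%. Leaving out an array gave 0 (without combination replicate 2) to 4 (without combination replicate 1), with 1 left, Il10ra, without vehicle replicate 2 and 2, Tgfbr2 and Il10, without vehicle replicate 1. With 1 array left in a group, that array is assumed to vary like the others. Against anti-PD-1 the count of 0 became 2 with normexp correction and 2 with trended moderation. Among the other pathway genes, the TP-16 count of 0 became 7 with normexp correction and 3 with trended moderation (18.6% and 4.08% of all probes called), and ranged from 0 to 1 with an array left out. The anti-PD-1 count ranged from 0 to 2. The combination count of 26 became 39 with normexp correction, 31 with trended moderation, 13 with dim probes tested too, which adds tests, and 0 with the t-test, and ranged from 0 to 21 with an array left out. Of all probes, 10.1% were called with dim probes tested too and 27.3% with the replicate block, for the combination against vehicle. With the replicate block, 3 of the 10 genes and 23 pathway genes were called with the combination and 0 in the other comparisons of each. Differences between replicates 1 and 2 correlated between groups at −0.19 to 0.29 across probes, so replicate numbers were not taken as pairs.

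Of the changes of single genes under settings that keep all arrays, 202 kept their direction and side of the threshold, 9 gained a call, 2 lost it and 9 turned sign. These counts leave out the t-test, under which all 3 calls were lost, and hold quantile normalization and the series table as separate settings. With an array left out, 221 stayed, 1 gained a call, 6 lost it and 12 turned sign. The signs turned were of values that did not pass. Tgfb2 with TP-16 was 0.39 with quantile normalization and 0.40 with the series table, and with anti-PD-1 it was 0.19, 0.19 and, as the mean of its probes, 0.0015. Il10 with TP-16 was −0.21 with normexp correction. Il10rb with TP-16 was 0.030 with quantile normalization, 0.039 with normexp correction and 0.031 with the series table. With an array left out, TP-16 values ranged from −0.047 to 0.29 for Tgfb1, −0.63 to 0.17 for Tgfb2, −0.027 to 0.24 for Tgfbr1, −0.019 to 0.22 for Inhba, −0.098 to 0.15 for Smad7 and −0.074 to 0.0096 for Il10rb. With anti-PD-1 they ranged from −0.12 to 0.21 for Tgfb1 and −0.53 to 0.067 for Tgfb2, and with the combination from −0.017 to 0.34 for Smad7. The cause of these shifts was not tested. Il10 and the second probes of Tgfb2 and Tgfbr1 are limited by signal near background.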
